A study of Mus musculus with 12 samples.

Results

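The 41 genes described here encode the enzymes that make, use and recycle glutathione, the thioredoxin system, the peroxiredoxins, and the transcription factor NRF2 with its inhibitor and a classical target. They were listed by symbol, and each was represented by the brightest, on average, of the probe sets annotated to that gene alone. By this rule 36 of the 41 were measured, of 17097 genes in all. Gsta3, Gstz1, Prdx5, Prdx6 and Keap1 were not analysed here.

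The study measured expression on 12 Affymetrix arrays in primary mouse embryonic fibroblasts (MEFs), cells grown out of e14.5 embryos of a C57Bl/6 x 129Sv F1 background and used at passage 4. 2 genotypes were compared: dKO cells, homozygous for conditional alleles of both CBP and p300, and wild-type cells. CBP (gene Crebbp) and p300 are paralogous acetyltransferases that act as transcriptional coactivators. Each genotype was given either 2',2'-dipyridyl (DP), an iron chelator that blocks the oxygen-sensing prolyl hydroxylases and so stabilises hypoxia-inducible factors (HIF), or its ethanol vehicle.

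The 4 groups were dKO with 100 µM DP for 3 h, dKO with ethanol, wild type with 100 µM DP for 3 h, and wild type with ethanol, with 3 arrays each. Adenovirus expressing Cre had been given to both genotypes for 16 h (multiplicity of infection 100), so virus and recombinase were shared by all groups and the alleles differed. Cells were then kept 48 h in 3% oxygen and 24 h in normoxia before treatment. The arrays of a genotype come from 3 numbered MEF lines (1, 5 and 6 in dKO; 3, 4 and 5 in wild type), each given both treatments. A line number used in both genotypes names different lines.

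Glutathione is a thiol peptide made by glutamate-cysteine ligase and then glutathione synthetase, and its supply of cysteine depends on cystine import. It reduces peroxides through glutathione peroxidases and is joined to reactive compounds by glutathione transferases, while thioredoxin and its reductases serve peroxiredoxins and other thiol proteins in parallel. NRF2, encoded by Nfe2l2, is held low by KEAP1. When released it pairs with small MAF proteins on antioxidant response elements of genes such as Gclc, Gclm, Slc7a11, Srxn1, Txnrd1 and Nqo1, and CBP is a known coactivator of NRF2.

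The median log2 value was 3.87 to 3.98 per array, and blank controls reached 3.28 to 3.53 at their 95th percentile. Crebbp was lower in dKO by both treatments, with differences of -0.76 under DP (adjusted p = 0.0022) and -0.85 in ethanol (adjusted p = 0.000992). Whether its probe set lies in the deleted part is not known, and the gene for p300 was not analysed here. All 5 HIF-target genes listed as a check of the treatment rose with DP in both genotypes, with a median of 2.82 log2 in dKO and 2.95 in wild type. DP arrays correlated with their group at 0.991 to 0.995 on average and ethanol arrays at 0.962 to 0.983. The ethanol arrays of dKO line 1 (0.962) and wild-type line 5 (0.970), called the deviating arrays here, were the lowest, with that of dKO line 5 close to them (0.973). The deviations of the 2 lowest from the group means correlated at 0.844 with each other over 8917 genes. The female-specific RNA Xist read 3.94 to 5.32 in dKO and 10.28 to 10.75 in wild type, and the Y-linked Eif2s3y 7.08 to 8.93 in dKO and 2.49 to 3.29 in wild type, so embryo sex and genotype cannot be told apart. All 7 measured fibroblast markers were called lower in dKO in both treatments; their summed log2 levels were 56.09 to 59.56 in dKO with DP and 56.78 to 60.26 in dKO with ethanol, against 68.87 to 69.60 in wild type with DP and 68.52 to 69.68 in wild type with ethanol. Epithelial markers (4 of 5 called lower in dKO in ethanol, Krt18 by the smallest p) summed to 22.87 to 24.89 in dKO with DP and 21.82 to 23.21 in dKO with ethanol, against 28.84 to 29.70 in wild type with DP and 27.11 to 28.16 in wild type with ethanol. Of 6 macrophage markers, Cd68 and Cd14 were higher and Lyz2 and Csf1r lower in dKO in ethanol, while the pan-leukocyte gene Ptprc was near the blank controls in all groups; none of 5 endothelial markers lay 1 log2 above them. The actin 3' minus 5' probe difference, a measure of RNA integrity, was 0.48 to 0.60 in dKO with DP and 0.40 to 0.45 in dKO with ethanol, against 0.28 to 0.38 in wild type with DP and 0.23 to 0.25 in wild type with ethanol. The same difference for Gapdh was 0.10 to 0.19 in dKO with DP and 0.19 to 0.21 in dKO with ethanol. In wild type it was 0.04 to 0.17 with DP and -0.03 to 0.15 with ethanol. The part of sex, cell type markers and RNA integrity in the genotype differences given here was not tested. The part of RNA integrity in the DP differences was not tested either.

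Promoters of Gclm and Srxn1 are shown because these NRF2 targets differed between the genotypes in opposite directions and both windows hold the same element core. The sequences are from RefSeq (GRCm38.p6), 250 bases before to 50 after the start, on the plus strand, at chr3:122245307-122245606 for Gclm and chr2:152105274-152105573 for Srxn1. Capitals mark a match to the antioxidant response element core TGACNNNGC, which in both lies on the minus strand.
Gclm: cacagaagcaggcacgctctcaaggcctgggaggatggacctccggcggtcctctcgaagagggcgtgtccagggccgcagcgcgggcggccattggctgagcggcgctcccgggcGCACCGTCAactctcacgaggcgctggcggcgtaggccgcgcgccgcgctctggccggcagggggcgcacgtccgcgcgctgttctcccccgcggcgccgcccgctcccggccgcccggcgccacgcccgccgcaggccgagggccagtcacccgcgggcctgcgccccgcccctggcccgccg
Srxn1: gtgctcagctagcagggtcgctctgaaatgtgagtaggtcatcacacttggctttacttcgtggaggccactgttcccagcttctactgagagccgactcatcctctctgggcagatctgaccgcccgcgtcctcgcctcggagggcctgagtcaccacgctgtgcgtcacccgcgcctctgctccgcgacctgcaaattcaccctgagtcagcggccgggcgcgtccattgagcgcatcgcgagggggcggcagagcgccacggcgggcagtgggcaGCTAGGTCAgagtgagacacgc

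The core was searched on both strands in the windows of 36 of the 41 listed genes; Gclc, Gsr, Gsta4, Gstt2 and Prdx6 were not searched. It was found in 10 of these 46 windows (21.7%) and in 4071 of all 32851 windows (12.4%). The 10 genes with a match were Gclm, Ggct, Gsta3, Gstm5, Gstm7, Mgst1, Nfe2l2, Prdx1, Srxn1 and Txnrd1. The hypoxia response element cores ACGTG or GCGTG were found in 25 of the 46 windows (54.3%) and in 43.8% of all windows. These matches describe letters, not binding.

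For DP, 1 of the 36 genes was called in wild-type cells and none in dKO cells. In wild-type cells the only call was a rise of Gclc (2.78% of the genes called, against 4.73% of all genes tested, 3.05% higher and 1.67% lower). In dKO cells no gene passed limma's adjusted p of 0.05, and 1.5% of all genes were called, 1.01% higher and 0.491% lower. An unadjusted p under 0.05 was found for 4 of the 36 in dKO, against 2409 of all 17097 genes. In wild type it was found for 5 of the 36, against 2596 of all genes. The median change with DP was -0.12 in dKO (-0.05 over all genes) and -0.07 in wild type (-0.03 over all genes).

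More of the genes were called for genotype than for treatment. In ethanol 10 genes were higher and 9 lower in dKO than in wild type, 52.8% of the 36, against 33.6% of all genes called (19.5% higher and 14.1% lower). Under DP 8 were higher and 10 lower, 50% of the 36, against 35.4% of all genes called (18.5% higher and 16.9% lower). A higher share is called among brighter genes: without the dimmest 40% of genes, 18 of 33 (54.5%) were called in each treatment, against 53.1% of all genes in ethanol and 54.6% under DP, so the count is close to the background at this level. Of the 36 genes, 17 were called in the same direction in both treatments, 8 higher and 9 lower in dKO. The share of all genes called in the same direction in both treatments was not counted, so the 17 have no background beside them. Both treatments' values come from the same lines, so the comparison under DP is not independent of that in ethanol. In bulk RNA, fewer cells of a type and less RNA per cell cannot be told apart.

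**Figure D1:**
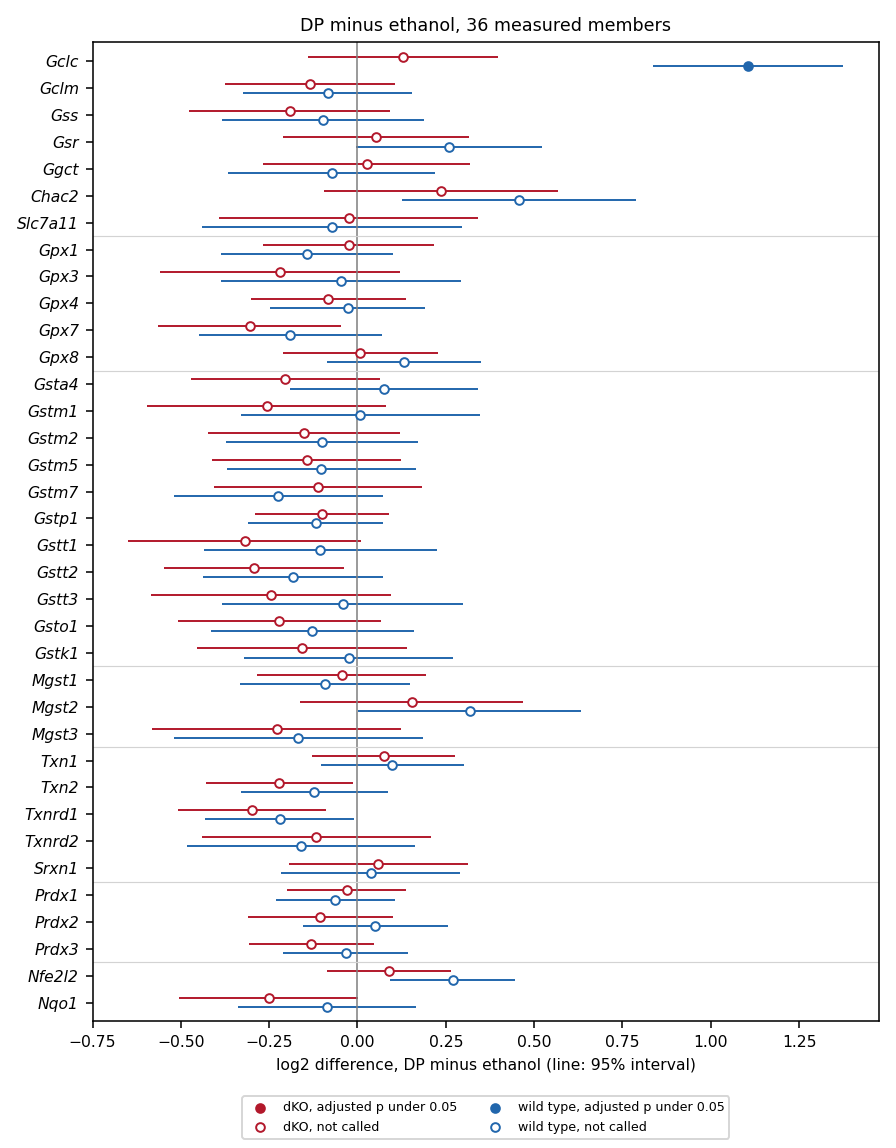
DP minus ethanol in log2 units (x axis) for each of the 36 measured genes (y axis), in dKO and in wild type, with 95% intervals. Gclc in wild type, at 1.11, is the one gene with an adjusted p under 0.05.

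**Figure D2:**
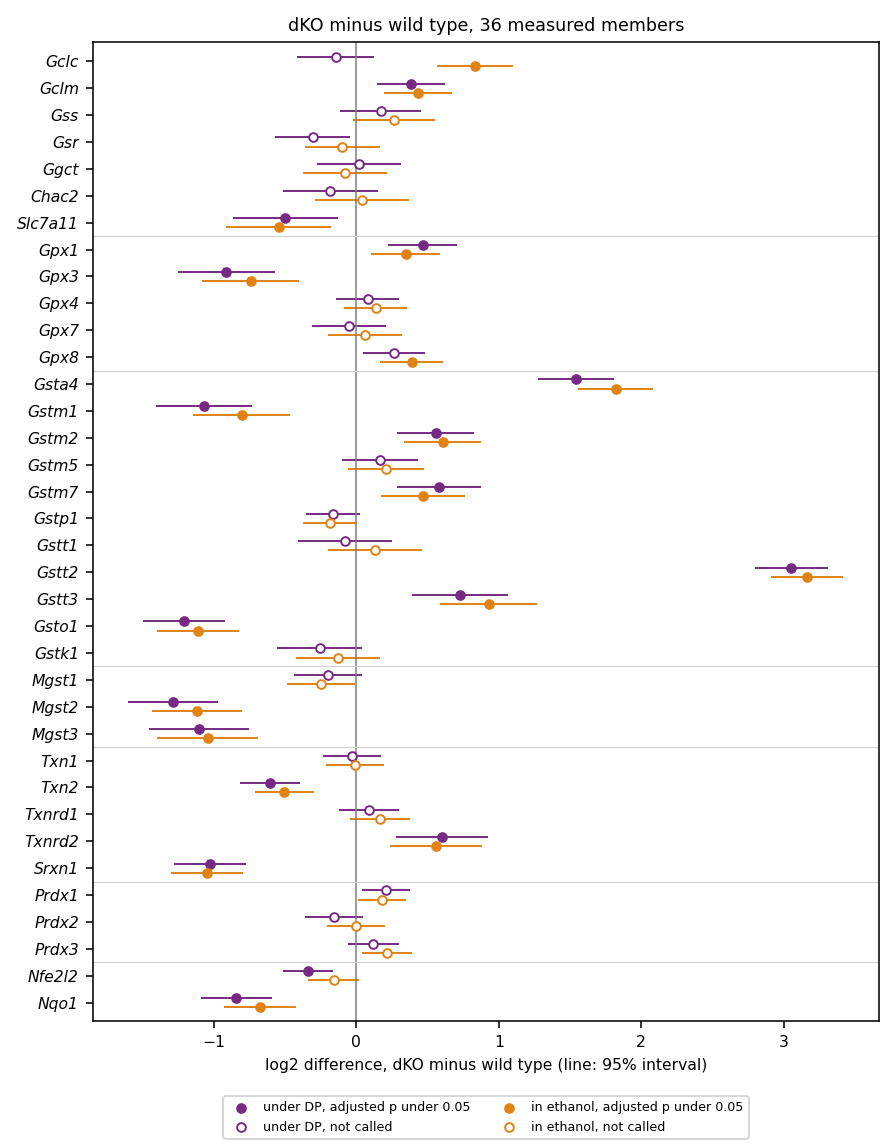
dKO minus wild type in log2 units (x axis) for each of the 36 measured genes (y axis), under DP and in ethanol, with 95% intervals. Gstt2, at 3.05 under DP and 3.17 in ethanol, lies farthest from 0.

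Gclc, the catalytic subunit of glutamate-cysteine ligase, was the one gene of the 36 called for DP, and only in wild type. It read 8.64, 8.69 and 8.91 in dKO with DP and 8.53, 8.49 and 8.82 in dKO with ethanol, against 8.87, 8.91 and 8.89 in wild type with DP and 7.87, 7.93 and 7.56 in wild type with ethanol. The wild-type ethanol arrays were the low ones, and all other arrays lay between 8.49 and 8.91. With DP Gclc rose 2.15-fold in wild type (1.11 ± 0.12 log2, SE, adjusted p = 0.000109), by 1.01, 0.98 and 1.34 in lines 3, 4 and 5. In dKO the difference was 0.13 ± 0.12 (adjusted p = 0.663), 0.11, 0.20 and 0.08 by line. The dKO level exceeded wild type in ethanol by 0.83 (adjusted p = 0.000176) but not under DP (-0.14, adjusted p = 0.413). As a test of the genotypes against each other, the DP change in dKO minus that in wild type was -0.98 (95% interval -1.36 to -0.60, adjusted p = 0.0253), against 0.562% of all genes called for this difference, 0.0468% higher and 0.515% lower. It lost its call in 6 of 12 fits leaving out 1 array, with adjusted p of 0.0856 and 0.0839 without the DP arrays of dKO lines 1 and 5, 0.0672 without the ethanol array of dKO line 6, and 0.0678, 0.0754 and 0.08 without the DP arrays of wild-type lines 3, 4 and 5. Its size stayed between -1.06 and -0.86 in all alternatives.

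Gclm, the modifier subunit of the same ligase, was higher in dKO in both treatments. It read 9.18, 9.19 and 9.35 in dKO with DP, against 9.0, 8.82 and 8.76 in wild type with DP, and 9.27, 9.35 and 9.50 in dKO with ethanol, against 9.10, 8.93 and 8.79 in wild type with ethanol. The genotypes did not overlap within either treatment. The differences were 0.38 under DP (adjusted p = 0.0164) and 0.43 in ethanol (adjusted p = 0.00829). The first lost its call with cyclic loess (0.28, adjusted p = 0.0744) and without the DP array of dKO line 6 (adjusted p = 0.0703), wild-type line 4 (0.0574) or wild-type line 5 (0.0679).

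Slc7a11, the cystine importer, was lower in dKO but lay close to the blank controls. It read 3.56, 3.59 and 3.83 in dKO with DP, against 4.37, 4.14 and 3.96 in wild type with DP. With ethanol it read 3.77, 3.85 and 3.44 in dKO, against 3.92, 4.21 and 4.57 in wild type. The genotypes did not overlap, and the differences were -0.50 under DP (adjusted p = 0.0364) and -0.54 in ethanol (adjusted p = 0.0244). The call under DP was lost without the DP array of dKO line 1 (adjusted p = 0.112) or 5 (0.102) or of wild-type line 3 (0.142) or 4 (0.08), and that in ethanol without the ethanol array of dKO line 6 (0.113) or of wild-type line 4 (0.0528) or 5 (0.0976), with only the arrays compared (0.0705) or without the deviating arrays (0.0859). Gss, the second enzyme of synthesis, Gsr, which reduces oxidised glutathione, Chac2, which degrades glutathione, and Ggct, which acts on gamma-glutamyl peptides, were called in no contrast. Gsr differed by -0.30 under DP, without overlap of the genotypes (adjusted p = 0.0704), and was called there with cyclic loess (-0.45, adjusted p = 0.00898), with the mean of probe sets (-0.38, 0.00463), with only the arrays compared (0.0167) and without the deviating arrays (0.0153). Ggct was near the blank controls in all 4 groups, so a change in it would be understated.

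**Figure D3:**
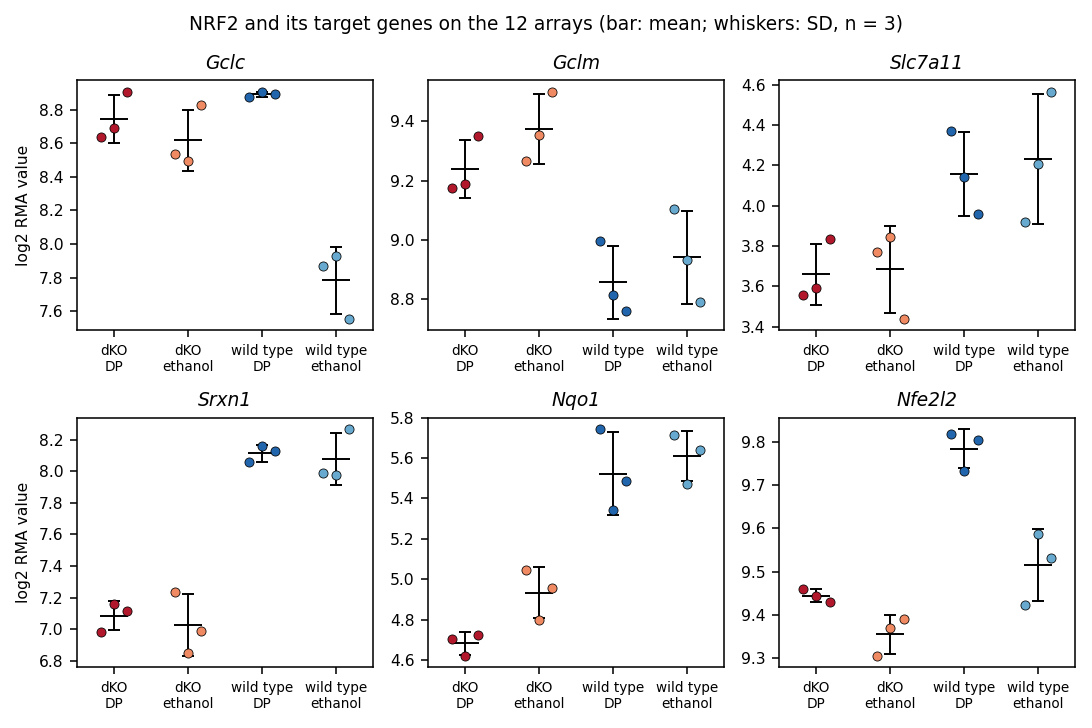
Log2 RMA values (y axis) of Gclc, Gclm, Slc7a11, Srxn1, Nqo1 and Nfe2l2 on the arrays of each group (x axis), with bars at the mean and whiskers of 1 SD. Gclc reads low in wild type with ethanol alone, and Srxn1 and Nqo1 are lower in dKO in both treatments.

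Among the genes of the glutathione peroxidase family, Gpx1 was higher and Gpx3, the secreted form, lower in dKO. Gpx1 differed by 0.47 under DP (adjusted p = 0.00545) and by 0.35 in ethanol (adjusted p = 0.0286). The ethanol call of Gpx1 was lost without the ethanol array of dKO line 1 (adjusted p = 0.0703), 5 (0.0514) or 6 (0.0592) or of wild-type line 4 (0.121) or 5 (0.0833), with only the arrays compared (0.106) and without the deviating arrays (0.134). Gpx3 differed by -0.91 under DP (adjusted p = 0.000527) and -0.74 in ethanol (adjusted p = 0.00246). Gpx8, of the endoplasmic reticulum, was 0.39 higher in dKO in ethanol (adjusted p = 0.00897). That call was lost with only the arrays compared (0.0572) and without the deviating arrays (0.0581). Under DP the difference was 0.27, without overlap (adjusted p = 0.0577), and it was called without the dimmest 40% of genes (0.0405), with the mean of probe sets (0.0462), with an intensity trend (0.0251), with only the arrays compared (0.019) and without the deviating arrays (0.0195). Gpx4, which reduces lipid hydroperoxides, and Gpx7 were called in no contrast.

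The glutathione transferases held the 3 largest rises in dKO among the 36 genes in each treatment, and differed in both directions: 5 of 11 measured were higher and 2 lower in dKO in each treatment (45.5% and 18.2%, against 18.5% and 16.9% of all genes under DP and 19.5% and 14.1% in ethanol). In both directions together, 63.6% of the 11 were called in each treatment. A higher share is called among brighter genes. Without the dimmest 40% of genes, 54.6% of all genes were called under DP and 53.1% in ethanol. Gstt2, a theta-class transferase encoded on chromosome 10, read 8.13, 8.06 and 8.02 in dKO with DP, against 5.00, 5.10 and 4.95 in wild type with DP, and 8.56, 8.30 and 8.23 in dKO with ethanol, against 5.00, 5.20 and 5.40 in wild type with ethanol. Every dKO array lay above every wild-type array. The difference was 8.31-fold under DP (3.05 ± 0.12 log2, adjusted p = 5.57e-09) and 8.97-fold in ethanol (3.17 ± 0.12, adjusted p = 3.6e-09).

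Gsta4, an alpha-class enzyme active on lipid peroxidation products, read 7.51, 7.82 and 7.69 in dKO with DP, against 6.21, 5.95 and 6.24 in wild type with DP, and 8.10, 7.83 and 7.71 in dKO with ethanol, against 6.05, 6.02 and 6.10 in wild type with ethanol. It was 2.91-fold higher in dKO under DP (adjusted p = 1.06e-06) and 3.53-fold in ethanol (adjusted p = 3.18e-07). Gstt3 read 6.98, 7.07 and 6.82 in dKO with DP, against 6.42, 6.07 and 6.20 in wild type with DP, and 7.48, 6.96 and 7.17 in dKO with ethanol, against 6.01, 6.31 and 6.5 in wild type with ethanol. The genotypes again did not overlap, and the differences were 0.73 under DP (adjusted p = 0.00271) and 0.93 in ethanol (adjusted p = 0.000458). Gstm2 was higher in dKO by 0.56 under DP and 0.61 in ethanol, and Gstm7, which read 4.02 on average, by 0.58 and 0.47. The call of Gstm7 was lost in both treatments with the mean of its probe sets, and in ethanol without the ethanol array of dKO line 1 (adjusted p = 0.0567) or of wild-type line 3 (0.0653) or 4 (0.0579).

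Gstm1, a mu-class enzyme encoded beside Gstm2, went the opposite way. It read 6.05, 6.08 and 5.93 in dKO with DP, against 7.17, 6.96 and 7.13 in wild type with DP, and 6.62, 6.14 and 6.06 in dKO with ethanol, against 6.94, 6.93 and 7.38 in wild type with ethanol. Its probe set carries the suffix that Affymetrix gives for possible cross-hybridisation, and all 4 of its probe sets were lower in dKO. The differences were -1.07 under DP (adjusted p = 0.000143) and -0.81 in ethanol (adjusted p = 0.00128). Gsto1, an omega-class enzyme, read 10.94, 10.62 and 10.52 in dKO with DP, against 11.87, 11.87 and 11.96 in wild type with DP. With ethanol it read 11.16, 10.93 and 10.66 in dKO, against 12.06, 12.01 and 12.02 in wild type. Its dKO level differed from wild type by -1.21 under DP (adjusted p = 1.4e-05) and -1.11 in ethanol (adjusted p = 2.81e-05). Gstm5, Gstp1, Gstt1 and Gstk1 were called in no contrast.

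The microsomal transferases, membrane enzymes of a separate family, had no gene higher in dKO: Mgst2 and Mgst3 were lower in both treatments and Mgst1 was not called. Of all genes, 16.9% were lower under DP and 14.1% in ethanol. Without the dimmest 40% of genes, 54.6% were called in either direction under DP and 53.1% in ethanol. A family of 3 genes is too small to set against these shares. Mgst2 read 4.14, 3.83 and 3.87 in dKO with DP, against 5.10, 5.24 and 5.35 in wild type with DP, and 4.00, 3.67 and 3.71 in dKO with ethanol, against 4.69, 4.84 and 5.21 in wild type with ethanol. Its differences were -1.28 (adjusted p = 1.84e-05) and -1.12 (adjusted p = 5.98e-05). Mgst3 read 7.13, 7.25 and 7.22 in dKO with DP, against 8.42, 8.10 and 8.39 in wild type with DP, and 7.73, 7.32 and 7.23 in dKO with ethanol, against 8.52, 8.15 and 8.74 in wild type with ethanol. Its differences were -1.11 under DP (adjusted p = 0.000153) and -1.04 in ethanol (adjusted p = 0.000247), with no overlap of the genotypes.

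**Figure D4:**
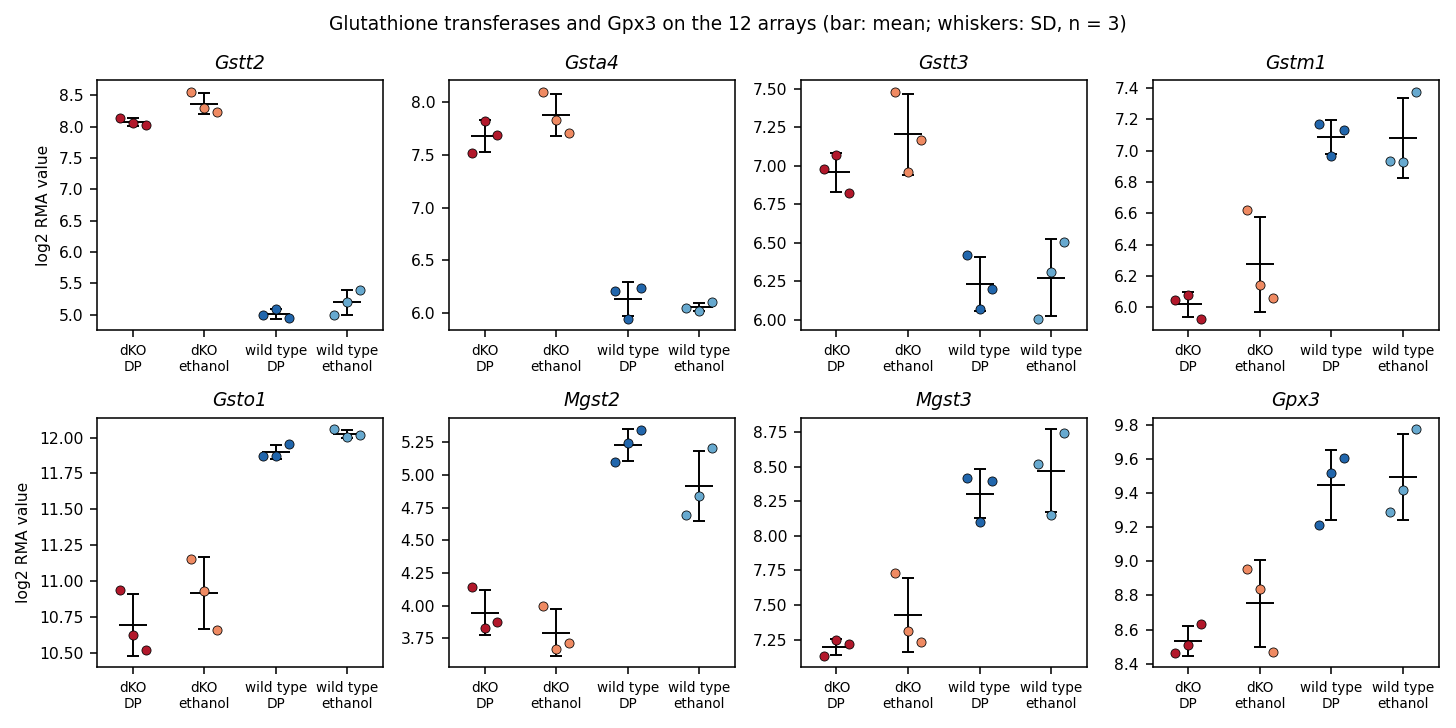
Log2 RMA values (y axis) of 7 transferases and of the peroxidase Gpx3 on the arrays of each group (x axis), with bars at the mean and whiskers of 1 SD. Gstt2, Gsta4 and Gstt3 are higher in dKO, and Gstm1, Gsto1, Mgst2, Mgst3 and Gpx3 are lower.

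In the thioredoxin system, Srxn1, which repairs overoxidised peroxiredoxins, read 6.98, 7.16 and 7.11 in dKO with DP, against 8.06, 8.16 and 8.13 in wild type with DP. With ethanol it read 7.24, 6.85 and 6.99 in dKO, against 7.99, 7.98 and 8.27 in wild type. All its dKO arrays lay below all its wild-type arrays. The differences were -1.03 under DP (adjusted p = 1.83e-05) and -1.05 in ethanol (adjusted p = 1.64e-05), and all 4 of its probe sets were lower in dKO. Mitochondrial thioredoxin Txn2 was lower in dKO, with differences of -0.60 under DP and -0.50 in ethanol, and mitochondrial thioredoxin reductase Txnrd2 was higher, by 0.60 and 0.56. The ethanol call of Txnrd2 was lost with cyclic loess (adjusted p = 0.095) and with only the arrays compared (0.0502).

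Txnrd1, the cytosolic reductase, read 9.83, 9.70 and 10.00 in dKO with DP, against 9.78, 9.75 and 9.72 in wild type with DP, and 10.17, 10.02 and 10.23 in dKO with ethanol, against 10.00, 9.98 and 9.94 in wild type with ethanol. In each genotype the DP arrays lay below the ethanol arrays. Txnrd1 was called in no contrast, and the DP difference was -0.30 in dKO (adjusted p = 0.194) and -0.22 in wild type (adjusted p = 0.298). The cytosolic thioredoxin Txn1 and the 3 measured peroxiredoxins, Prdx1, Prdx2 and Prdx3, were also called in none. Prdx1 lay just outside the threshold under DP (0.21 higher in dKO, adjusted p = 0.051) and was called there with cyclic loess (adjusted p = 0.0282), without the dimmest 40% of genes (0.0305), with the mean of probe sets (0.0349), with an intensity trend (0.00445), with only the arrays compared (0.0416) and without the deviating arrays (0.0265). Prdx3 (0.22 in ethanol, adjusted p = 0.0604) was called there without the dimmest genes (0.0369), with the mean of probe sets (0.0415) and with an intensity trend (0.0356).

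Nqo1, a quinone reductase and classical NRF2 target, read 4.70, 4.62 and 4.73 in dKO with DP, against 5.74, 5.34 and 5.48 in wild type with DP, and 5.05, 4.80 and 4.96 in dKO with ethanol, against 5.71, 5.47 and 5.64 in wild type with ethanol. Its dKO level differed from wild type by -0.84 under DP (adjusted p = 9.17e-05) and -0.68 in ethanol (adjusted p = 0.000539), with no overlap. Nfe2l2, which encodes NRF2, read 9.46, 9.44 and 9.43 in dKO with DP, against 9.82, 9.73 and 9.80 in wild type with DP. With ethanol it read 9.30, 9.37 and 9.39 in dKO, against 9.42, 9.59 and 9.53 in wild type. The DP arrays of Nfe2l2 lay above the ethanol arrays in each genotype. The DP difference was 0.09 in dKO (adjusted p = 0.638) and 0.27 in wild type (adjusted p = 0.0954), and neither was called. Its dKO level was lower than wild type under DP (-0.34, adjusted p = 0.00546), and the ethanol difference was -0.16 (adjusted p = 0.165). With the mean of its 2 probe sets, of which one is dim, the call under DP was lost (-0.09, adjusted p = 0.492), and with cyclic loess the ethanol difference was called (-0.26, adjusted p = 0.0283).

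Among the 6 classical NRF2 targets named in the background, genotype differences thus ran in both directions: Gclm was higher in dKO in both treatments and Gclc in ethanol, Srxn1, Nqo1 and Slc7a11 were lower, and Txnrd1 was not called. Their responses to DP were not called other than for Gclc in wild type.

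Of 81 further genes of the pathway, listed with earlier results known, 73 were measured. DP called 2 of them in dKO (1 up, 1 down) and 7 in wild type (3 up, 4 down), against 1.5% and 4.73% of all genes. Ugdh, which makes UDP-glucuronate, read 10.27, 10.21 and 10.32 in dKO with DP and 9.57, 9.74 and 9.92 in dKO with ethanol, against 10.74, 10.66 and 10.83 in wild type with DP and 9.65, 9.87 and 9.60 in wild type with ethanol. It rose by 1.04 in wild type (adjusted p = 6.3e-05) and 0.53 in dKO (adjusted p = 0.032; 0.068 with MEF line as a block). The dKO call was lost in 7 of 12 fits leaving out 1 array, with adjusted p up to 0.141.

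Txnip, an inhibitor of thioredoxin, fell with DP in both genotypes. It read 8.67, 8.88 and 8.80 in dKO with DP and 10.19, 10.23 and 10.06 in dKO with ethanol, against 8.69, 8.86 and 8.84 in wild type with DP and 9.15, 9.22 and 9.43 in wild type with ethanol. The change was -1.37 in dKO (adjusted p = 6.23e-06) and -0.47 in wild type (adjusted p = 0.0173), and the difference of -0.90 passed (adjusted p = 0.0115). The wild-type call was lost without the DP array of line 3 (adjusted p = 0.0911), without the ethanol array of line 5 (0.0645), and with only the arrays compared (0.0549). Chac1, which degrades glutathione, fell in wild type (-1.19, adjusted p = 0.000702). It read 7.16, 6.96 and 7.42 in dKO with DP and 7.96, 7.46 and 7.72 in dKO with ethanol, against 7.71, 7.69 and 7.82 in wild type with DP and 8.65, 8.91 and 9.24 in wild type with ethanol. In dKO Chac1 changed with DP by -0.79, -0.50 and -0.30 in lines 1, 5 and 6, and was not called. The difference between the DP effects of the genotypes was not called for it either.

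Among the partners and regulators of NRF2, DP called 2 genes up (Maff, 1.1, and Bach2, 0.73) and 1 down (Mafk, -0.58) of 11 in wild type (27.3%, against 4.73% of all genes), and none in dKO (against 1.5%). The difference between the DP effects of the genotypes was called for none of the 11 (against 0.562% of all genes). MAFF and MAFK are small MAF partners and BACH2 is a competing repressor. Leaving out 1 array lost the call of Maff in 7, of Bach2 in 5 and of Mafk in 6 of 12 fits. Slc3a2, the partner chain of the cystine importer, fell in wild type (-0.37, adjusted p = 0.0485; 0.111 with the block), and its call was lost in 10 of 12.

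**Figure D5:**
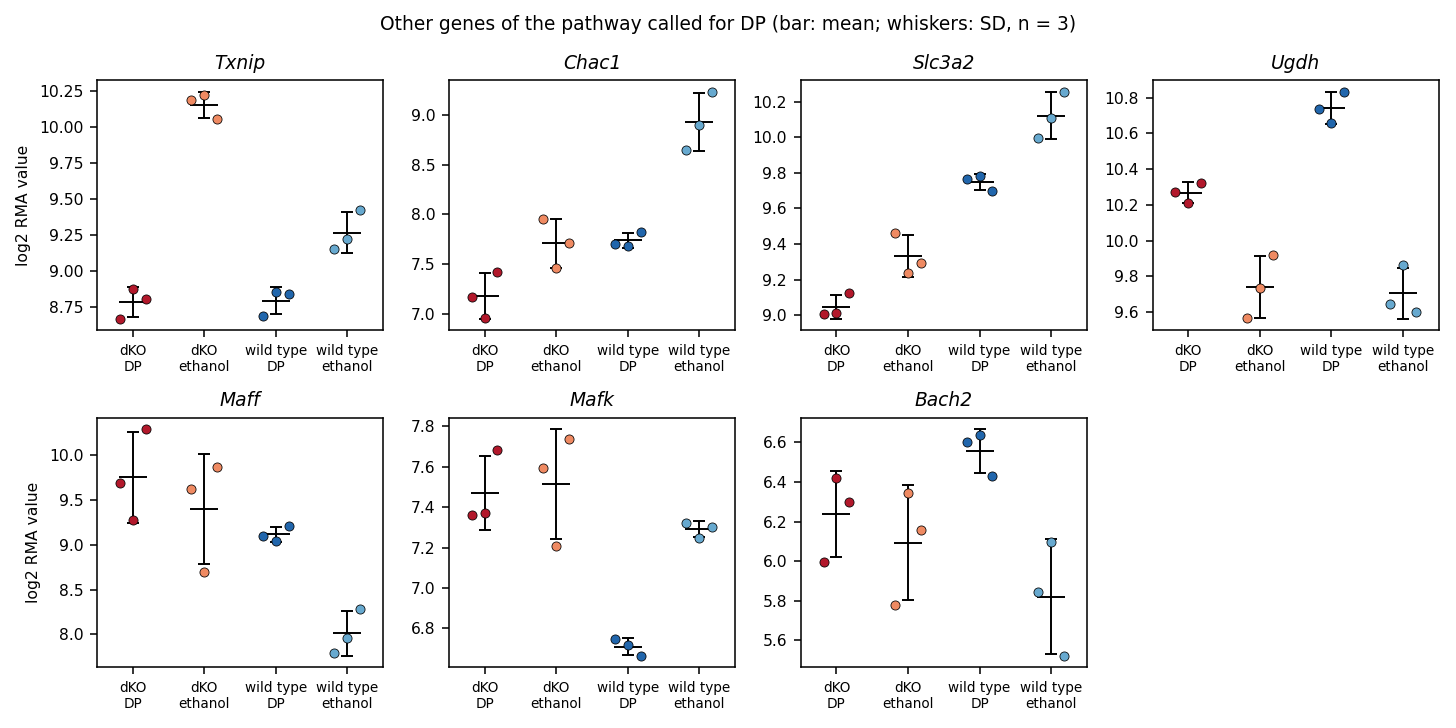
Log2 RMA values (y axis) of the genes of the further lists called for DP in wild type, on the arrays of each group (x axis), with bars at the mean and whiskers of 1 SD. Txnip falls by 1.37 in dKO and 0.47 in wild type.

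For genotype, 12 of the 73 were higher and 23 lower in dKO in ethanol (47.9%, against 33.6% of all genes), and 8 were higher and 26 lower under DP (46.6%, against 35.4%). Without the dimmest 40% of genes, the share of all genes called was 53.1% in ethanol and 54.6% under DP. The 73 were not counted with that filter, so these shares do not show an excess of calls among them. Of the NRF2 targets beyond the 36, 2 were higher and 6 lower under DP and 2 higher and 5 lower in ethanol of 15; the transporter Abcc1 differed by -1.07 and -0.97 and the reductase Akr1b8 by -1.02 and -0.89. Hmox1, the haem oxygenase, was not called with DP (0.91 in wild type, adjusted p = 0.126). Of 10 genes of cysteine supply and glutathione breakdown, 2 were higher and 5 lower in both treatments, among them Oplah, which recycles oxoproline (2.01 under DP, 1.88 in ethanol), and Cth, which makes cysteine (-1.24, -1.12). NADPH supply had 0 higher and 3 lower of 7 under DP and 1 higher and 3 lower in ethanol, with Idh1 at -1.07 and -1.0.

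The counts that follow stand against 18.5% higher and 16.9% lower of all genes under DP, and 19.5% and 14.1% in ethanol. Of 15 thioredoxin relatives and glutaredoxins, 1 was higher and 7 lower under DP and 2 higher and 6 lower in ethanol; Nxn, nucleoredoxin, differed by -1.48 and -1.46 and Txndc12 by 0.79 and 0.74. Of 7 superoxide and peroxide enzymes, 1 was higher and 2 lower under DP and 1 each in ethanol, with cytosolic Sod1 at 0.60 and 0.62 and extracellular Sod3 at -1.65 and -1.84. Of 8 other transferases, 1 was higher and 2 lower under DP and 2 each in ethanol, with Ptges, a prostaglandin E synthase, at -2.60 and -2.11. Of 11 NRF2 partners and regulators, 1 was higher and 1 lower under DP and 2 higher and 1 lower in ethanol.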

How the data were processed

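The authors deposited log2 probe set values that, per the submitters' processing notes, come from RMA in Affymetrix Expression Console 1.1, which subtracts background, normalizes the arrays together and combines the probes of a set. For scanner and hybridisation batch the sources used here give nothing; 100 ng of RNA was labelled per array, per the labels. The number of arrays limits the precision.

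Of 45141 probe sets, 104 controls, 551 with several gene symbols and 15588 with none were left out. Symbols of 28689 of the other 28898 were updated through the gene identifier to RefSeq GRCm38.p6 names, and the probe set with the highest mean stood for each of 17097 genes.

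Each gene was fitted with limma 3.58.1 in R 4.3.3 (lmFit, contrasts.fit, eBayes; tested on simulated data), 1 mean per group over 12 arrays, with no block. Calls were made where the p adjusted by Benjamini-Hochberg across the 17097 genes was below 0.05. The contrasts share arrays. Standard errors are moderated. Per the labels, each replicate is its own MEF line, and a line received both treatments; as a check, deviations of a line's DP and ethanol arrays had correlations of 0.04 (dKO line 1), 0.32 (dKO line 5), 0.36 (dKO line 6), 0.42 (wild-type line 3), 0.06 (wild-type line 4) and 0.33 (wild-type line 5).

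The genes, further lists, markers, named-gene rule and tests were chosen with earlier results of these data known. Array values are given for genes called in a contrast (up to 8 by smallest adjusted p) and for Gclc, Gclm, Slc7a11, Txnrd1, Srxn1, Nqo1 and Nfe2l2, and for 3 genes of further lists called with DP; the others are given by change or count. Tables and figures used Python 3.11.15, pandas 2.3.3, numpy 2.4.6 and matplotlib 3.10.9. Alternatives were median centring, cyclic loess, an intensity trend, the mean of probe sets, MEF line as a block, a filter on the dimmest 40% of genes, only the arrays compared, leaving out each array and, chosen after seeing the data, leaving out the 2 deviating ethanol arrays.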

Additional observations from a re-analysis of the deposited data

Results flagged for a closer look

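The DP effect on Gclc differed between the genotypes by the interaction test, dKO minus wild type, at -0.98 (adjusted p = 0.0253). Its DP change was 0.13 in dKO and 1.11 in wild type, where the ethanol arrays were the low ones. This interaction call of Gclc was lost in 6 of 12 fits leaving out 1 array. The DP effect on Txnip differed by the same test at -0.90 (adjusted p = 0.0115), with changes of -1.37 in dKO and -0.47 in wild type. Both genes moved the same way in each of the 3 lines of a genotype. Groups held 3 arrays, too few for an outlier check.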

How the results depend on the processing

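Counts of the 36 genes called kept within 1.5 times of the values given above under the alternatives run, apart from these. For DP in wild type, 2 genes were called without the 2 deviating ethanol arrays, the second being Mgst2 (0.47, adjusted p = 0.0364). For the difference between DP effects, the count lay between 0 and 1 when each array was left out in turn; for genotype it lay between 16 and 20 in each treatment. With MEF line as a replicate block the counts were 0 for DP in dKO, 1 for DP in wild type, 18 for genotype under DP, 19 in ethanol and 1 for the difference, so the pairing moved none of them; it ended the DP calls of Ugdh in dKO and Slc3a2 in wild type and no other call named here. Genes not called for genotype in the tests above but called under at least 1 alternative were Gsr, Gpx8 (under DP), Prdx1, Prdx3, Nfe2l2 (in ethanol), Gstk1, Gstp1, Gstm5, Gss and Mgst1. Nqo2, an NRF2 target not described above, was lower in dKO (-0.41 under DP, -0.49 in ethanol) and turned to 0.08 and 0.12 with the mean of its probe sets (adjusted p = 0.7 and 0.58); the cause was not tested. Slc7a11, Gstm7 and Ggct fall among the dimmest 40% of genes. The difference between DP effects needs all 12 arrays and has no value with only the arrays compared.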

Other observations

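Markers of other cell types, given as summed log2 levels, were as follows. Adipocyte markers (3 of 5 measured) read 12.89 to 13.71 in dKO with DP and 11.85 to 12.29 in dKO with ethanol, against 14.80 to 15.53 in wild type with DP and 13.57 to 14.43 in wild type with ethanol, and Fabp4 was the marker called lower in dKO. Skeletal muscle markers read 19.24 to 20.93 in dKO with DP and 20.03 to 21.37 in dKO with ethanol, against 21.95 to 22.74 in wild type with DP and 22.75 to 23.84 in wild type with ethanol, with Des and Actc1 called lower. Neural markers read 19.20 to 20.07 in dKO with DP and 18.67 to 20.96 in dKO with ethanol, against 23.54 to 24.00 in wild type with DP and 23.61 to 24.51 in wild type with ethanol, and Tubb3 had the largest change (-3.14 under DP, -3.51 in ethanol). No erythroid marker was called for genotype.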
